A study of Mus musculus with 12 samples.

Results

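The pentose phosphate pathway and the cytosolic malic enzyme were described at the level of mRNA in mouse macrophages through 8 genes: G6pdx, Pgls, Pgd, Rpia, Rpe, Tkt, Taldo1 and Me1. The members were chosen by their known enzymatic role, with earlier results of these data known. They were found by matching Ensembl gene identifiers, with the version dropped, to mouse gene symbols. They are 8 of the 47937 genes with a count in the table, and all 8 were among the 11760 genes with enough reads to be tested.

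Bone marrow cells of C57BL/6 mice were cultured for 7 days with 20 ng/ml CSF-1, the growth factor that drives monocyte precursors to become macrophages, and RNA-seq read counts per gene were obtained. 4 groups of 3 libraries each were compared. M0 macrophages were left unstimulated, and their label gives no time. The M1_18h group (M1) received 50 ng/ml IFNγ and 20 ng/ml LPS for 18 h, an inflammatory stimulus. The DGAT1i_18h group (DGAT1i) received 50 μM T863, an inhibitor of DGAT1, which catalyses the last step of triglyceride synthesis. The DGAT1i_M1_18h group (DGAT1i+M1) received the inhibitor together with IFNγ and LPS. All groups share the strain and the CSF-1 culture. The descriptions of 2 DGAT1i libraries name the compound T864 and T865, and the sample titles, which give DGAT1i, were followed.

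The pentose phosphate pathway branches from glycolysis at glucose 6-phosphate. Its oxidative branch reduces NADP+ to NADPH while making ribulose 5-phosphate, and its non-oxidative branch interconverts sugar phosphates, so that ribose can be drawn off for nucleotides or carbon can return to glycolysis. Macrophages spend NADPH on the oxidative burst, on nitric oxide synthesis, on the reduction of glutathione and thioredoxin and on fatty acid synthesis, and malic enzyme is another cytosolic source of it.

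The libraries held 4996014 to 6621671 reads. Levels are given as CPM, the counts of a gene per 1000000 reads of its library after TMM scaling of the library sizes, and 1 CPM was worth 4.28 to 7.58 reads, depending on the library. Without TMM scaling the median gene shifted by -0.46 on the log2 scale between M1 and M0 and by -0.43 between DGAT1i+M1 and DGAT1i, and the share of higher genes among those called went from 50.6% to 25% and from 50% to 25.5%. In DGAT1i against M0 that share went from 45.2% to 29.7%, and for the difference between the inhibitor responses from 46.9% to 58.2%. Nothing in the labels says that the libraries of a group came from separate cultures or animals, so the p-values measure the spread between libraries, which may be technical. In bulk RNA, fewer cells of a type and less RNA per cell cannot be told apart. Nos2, the inducible nitric oxide synthase that marks the response to IFNγ and LPS, had 0 reads in every M0 and DGAT1i library and 23554 to 27393 and 23092 to 28577 reads in the M1 and DGAT1i+M1 libraries.

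Positions are those of GENCODE M21 on GRCm38. In the oxidative branch, G6pdx (ENSMUSG00000031400.10) lies on the minus strand at chrX:74409483-74429194, Pgls (ENSMUSG00000031807.10) on the plus strand at chr8:71592176-71601092, and Pgd (ENSMUSG00000028961.15) on the minus strand at chr4:149149991-149166771. In the non-oxidative branch, Rpia (ENSMUSG00000053604.5) lies on the minus strand at chr6:70765720-70792232, Rpe (ENSMUSG00000026005.15) on the plus strand at chr1:66700831-66719805, Tkt (ENSMUSG00000021957.6) on the plus strand at chr14:30548359-30574720 and Taldo1 (ENSMUSG00000025503.4) on the plus strand at chr7:141392199-141402968. Me1 (ENSMUSG00000032418.15) lies on the minus strand at chr9:86581371-86695953. Reads were counted over whole genes.

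The promoter windows of all 8 members were found in RefSeq (GRCm38.p6), from 250 bases before to 50 bases after a start site, with 10 windows in all because Pgd and Me1 have 2 each. Both strands were searched for the core of the antioxidant response element, TGACNNNGC, the motif bound by NRF2 with its small MAF partners. It occurred in 3 of the 10 windows, those of G6pdx, Me1 and one of Pgd, against 12.4% of 32851 RefSeq windows. Windows of the genes that rose most after IFNγ and LPS are shown with that of Tkt, which fell, while the second window of Me1 (chr9:86687228-86687527), which lacks the core, is not shown. They are given as written on the strand of the gene, with matches to the core in capitals.
G6pdx, chrX:74428831-74429130, minus strand: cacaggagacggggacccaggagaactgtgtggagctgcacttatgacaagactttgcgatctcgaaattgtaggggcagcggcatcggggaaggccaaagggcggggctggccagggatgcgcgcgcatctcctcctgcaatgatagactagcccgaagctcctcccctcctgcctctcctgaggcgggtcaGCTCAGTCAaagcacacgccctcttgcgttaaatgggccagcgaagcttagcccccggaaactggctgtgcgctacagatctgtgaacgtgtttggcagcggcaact
Pgd, chr4:149166656-149166955, minus strand: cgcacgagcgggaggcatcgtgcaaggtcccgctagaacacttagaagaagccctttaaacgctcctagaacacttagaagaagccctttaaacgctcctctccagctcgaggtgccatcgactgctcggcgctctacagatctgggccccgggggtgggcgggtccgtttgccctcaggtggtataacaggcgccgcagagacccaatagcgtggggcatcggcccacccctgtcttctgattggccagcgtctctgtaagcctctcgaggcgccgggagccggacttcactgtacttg
Pgd, second start site, chr4:149166033-149166332, minus strand: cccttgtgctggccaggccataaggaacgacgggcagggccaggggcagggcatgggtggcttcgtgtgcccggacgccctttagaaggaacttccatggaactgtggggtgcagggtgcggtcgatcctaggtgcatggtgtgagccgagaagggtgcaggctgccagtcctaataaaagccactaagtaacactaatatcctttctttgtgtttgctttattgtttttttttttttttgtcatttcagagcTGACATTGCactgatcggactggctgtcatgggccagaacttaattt
Me1, chr9:86695865-86696164, minus strand: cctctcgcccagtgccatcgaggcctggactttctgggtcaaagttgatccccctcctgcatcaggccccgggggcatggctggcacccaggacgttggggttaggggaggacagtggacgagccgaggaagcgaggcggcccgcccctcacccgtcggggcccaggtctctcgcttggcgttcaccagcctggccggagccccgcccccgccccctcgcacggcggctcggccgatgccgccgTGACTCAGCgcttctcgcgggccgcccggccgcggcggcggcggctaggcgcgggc
Tkt, chr14:30548881-30549180, plus strand: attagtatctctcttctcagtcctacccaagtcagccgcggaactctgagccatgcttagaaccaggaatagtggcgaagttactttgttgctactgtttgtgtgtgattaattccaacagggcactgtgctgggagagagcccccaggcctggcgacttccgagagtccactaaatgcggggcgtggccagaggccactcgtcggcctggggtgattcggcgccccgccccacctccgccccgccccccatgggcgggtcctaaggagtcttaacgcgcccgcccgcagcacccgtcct
The match in Me1 begins 6 bases before the start site and that in the second window of Pgd lies at position 4 after its start. The match in G6pdx is on the opposite strand and begins 57 bases before the start site, so its capitals read as the reverse complement of the core. The GC box GGGCGG occurred in 8 of the 10 windows, against 35.7% of all windows, and CCAAT in 4, against 37.4%. The E-box CACGTG and the letters TCACNCCAC, a form of the sterol regulatory element, occurred in none of the 10, against 7.15% and 1.24% of all windows. A match describes the letters of these windows, and binding was not measured.

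IFNγ and LPS moved the genes of the pathway in opposite directions. In M1 against M0, 7 of the 8 members passed the test, 5 higher and 2 lower, where 73.3% of all tested genes passed, 37.1% higher and 36.2% lower, and the same 7 had groups that did not overlap, as 75.4% of all genes had. The median log2 fold change of the 8 was 0.48, against 0.01 over all genes tested. When the same stimulus was compared in the presence of the inhibitor (DGAT1i+M1 against DGAT1i), all 8 passed, 5 higher and 3 lower, where 70.6% of all genes passed, 35.3% in each direction. The groups of all 8 did not overlap, as was so for 72.5% of all genes, and the median was 0.42 against -0.01. The inhibitor moved fewer members. In DGAT1i against M0, 3 of 8 rose and none fell, where 24.4% of all genes passed, 11% higher and 13.4% lower, and 4 members, against 37.8% of all genes, did not overlap. In DGAT1i+M1 against M1, 4 of 8 passed, 3 higher and 1 lower, where 29.8% of all genes passed, 13.5% higher and 16.3% lower, and the same 4 had groups that did not overlap, against 39.7% of all genes. For the difference between the inhibitor responses, 2 of 8 passed, both lower, where 18.5% of all genes passed, 8.66% higher and 9.8% lower. With library sizes alone, the log2 fold changes in M1 against M0 were lower by about the shift of the median gene, at 1.35 for G6pdx, 1.06 for Pgd, 0.92 for Me1, 0.25 for Taldo1, -0.91 for Pgls and -0.95 for Tkt. The medians for the inhibitor in resting and stimulated cells were 0.19 and 0.12, against 0.00 and -0.01 over all genes tested. The comparisons share libraries, so their counts are not independent.

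**Figure D1:**
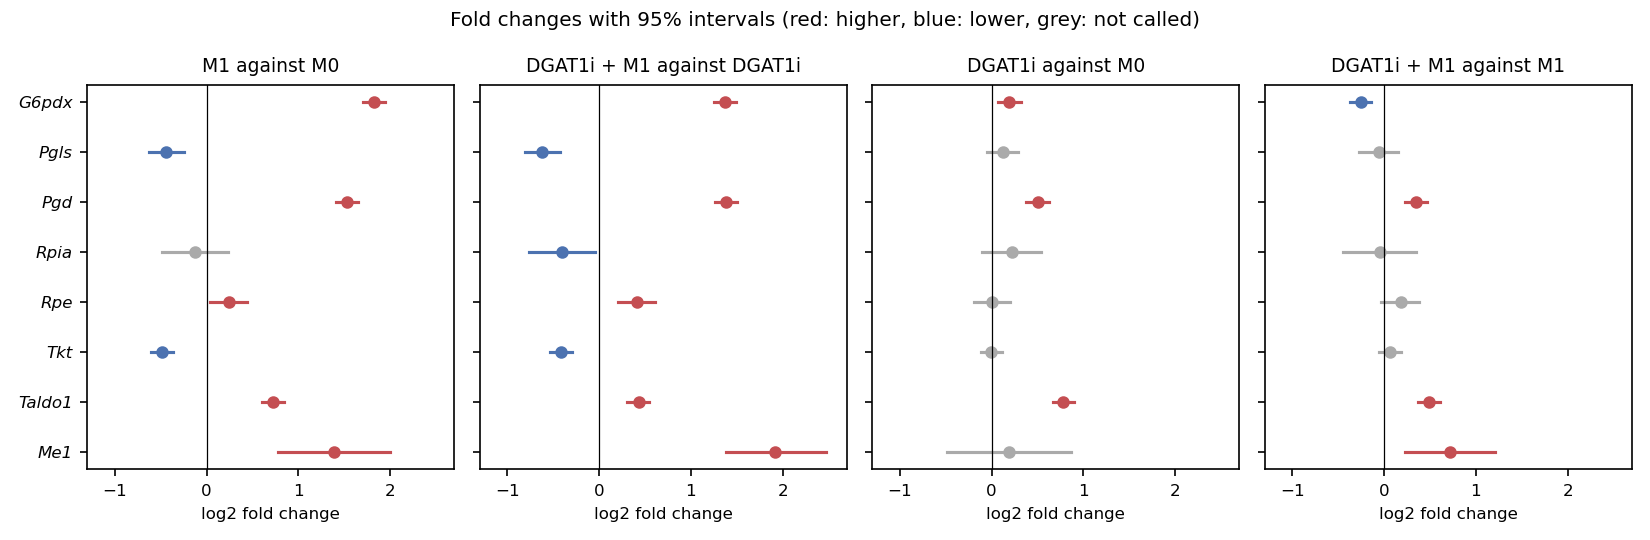
Log2 fold change (x axis) of each of the 8 genes in 4 comparisons, with 95% intervals. Red genes were higher, blue genes lower and grey genes did not pass the test, and M1 stands for M1_18h. G6pdx, Pgd and Me1 lie farthest to the right in both comparisons of IFNγ and LPS, at 1.82, 1.53 and 1.39 without the inhibitor, and Tkt and Pgls lie to the left of 0.

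The first enzyme of the oxidative branch, glucose-6-phosphate dehydrogenase, encoded by G6pdx, makes the first NADPH and commits glucose 6-phosphate to the pathway. G6pdx stood at 163.6, 168.1 and 178.1 CPM in the M0 libraries and at 604.5, 615.8 and 581.3 CPM in the M1 libraries. With the inhibitor alone it stood at 192.9, 190.8 and 199.8 CPM, and with both treatments at 509.3, 500 and 503.2 CPM. The 4 groups did not overlap, in the ascending order M0, DGAT1i, DGAT1i+M1 and M1. IFNγ and LPS raised G6pdx by 1.82 ± 0.05 on the log2 scale (SE), 3.534-fold, with a Benjamini-Hochberg adjusted p of 8.35e-37 in the quasi-likelihood test of edgeR, which also gave the adjusted p-values that follow. With the inhibitor G6pdx moved in opposite directions in resting and stimulated cells. It rose by 0.19 ± 0.05 in resting cells (adjusted p = 0.00424, edgeR) and fell in stimulated cells, where it decreased by 0.25 ± 0.05 (adjusted p = 6.80e-05, edgeR). The difference between these responses was -0.45 ± 0.07 (adjusted p = 5.41e-06, edgeR's test of the interaction). Of the exon bases of G6pdx, 13.6% are shared with Ikbkg on the opposite strand, a subunit of the IκB kinase complex, and use of strand in the counting is not given. Ikbkg itself rose by 0.84 after IFNγ and LPS and with the inhibitor by 0.53 in resting cells and by 0.51 in stimulated cells, from mean levels of 83.1 CPM in M0 and 148.2 CPM in M1.

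The second enzyme, 6-phosphogluconolactonase, encoded by Pgls, opens the lactone that the first one makes. Pgls stood at 59.86, 56.86 and 54.3 CPM in M0 and at 42.95, 40.14 and 43.08 CPM in M1. In the DGAT1i libraries it stood at 64.29, 60.48 and 60.7 CPM, and in the DGAT1i+M1 libraries at 44.67, 37.34 and 38.76 CPM. Every stimulated library was below every unstimulated one. Pgls fell by 0.44 ± 0.08 on the log2 scale in M1 against M0 (adjusted p = 3.77e-06, edgeR), opposite in direction to its neighbours in the pathway, and fell by 0.62 ± 0.08 in DGAT1i+M1 against DGAT1i (adjusted p = 2.90e-09, edgeR). Neither comparison of the inhibitor passed the test for Pgls: the log2 fold change was 0.12, with a 95% interval of -0.05 to 0.29, in resting cells and -0.06, with an interval of -0.27 to 0.15, in stimulated cells. The resting groups did not overlap, as was so for 37.8% of all genes tested in that comparison. Pgls shares 20.6% of its exon bases with Fam129c on the same strand, which passed the test in none of the 5 comparisons.

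The third enzyme, 6-phosphogluconate dehydrogenase, encoded by Pgd, makes the second NADPH and releases carbon dioxide. Pgd stood at 238.6, 229.6 and 251.9 CPM in M0, at 700.5, 669.9 and 711.3 CPM in M1, at 356.3, 332.8 and 333.2 CPM in DGAT1i and at 917.9, 888 and 846.2 CPM in DGAT1i+M1. The 4 groups did not overlap, and the order differed from that of G6pdx in that the libraries with both treatments were highest. IFNγ and LPS raised Pgd by 1.53 ± 0.05 on the log2 scale, 2.891-fold, in the absence of the inhibitor (adjusted p = 5.86e-33, edgeR) and by 1.38 ± 0.05 in its presence (adjusted p = 5.44e-31, edgeR). The inhibitor raised it by 0.51 ± 0.05 in resting cells (adjusted p = 2.12e-11, edgeR) and by 0.35 ± 0.05 in stimulated cells (adjusted p = 1.71e-07, edgeR). The difference between the inhibitor responses was -0.16, with an interval of -0.33 to 0.01, and did not pass the test (adjusted p = 0.136, edgeR).

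**Figure D2:**
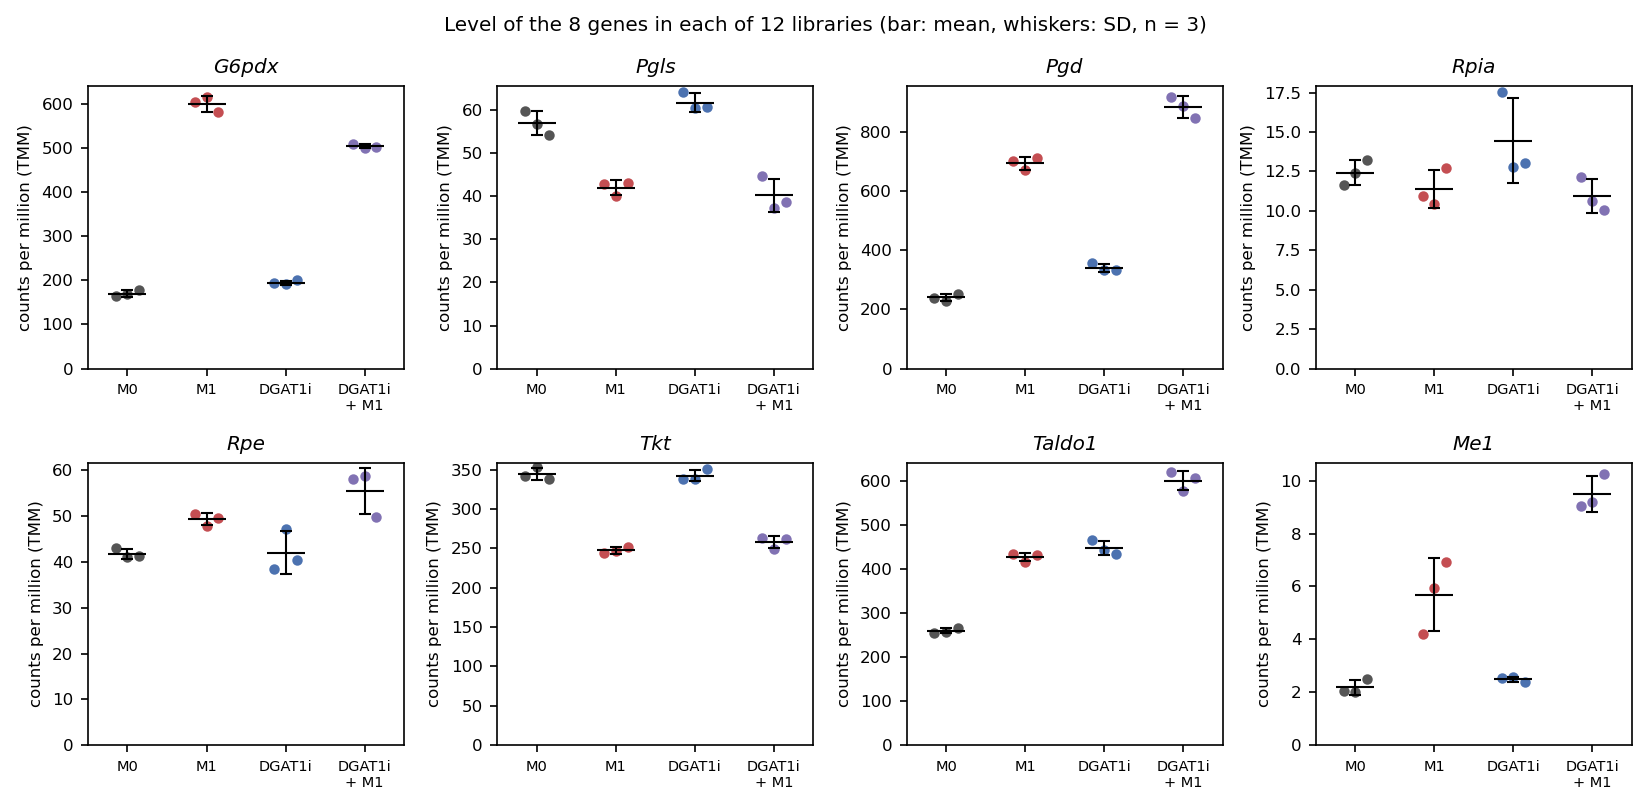
Level of each of the 8 genes in CPM after TMM scaling (y axis, from 0) in the M0, M1, DGAT1i and DGAT1i+M1 libraries. Points are single libraries, the horizontal bar is the mean and the whiskers are the SD of 3 libraries. G6pdx was highest in M1, with a mean of 600.5 CPM, whereas Pgd, Taldo1 and Me1 were highest in DGAT1i+M1, with means of 884, 601.1 and 9.503 CPM.

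In the non-oxidative branch, Rpia and Rpe encode the isomerase and the epimerase that convert ribulose 5-phosphate to ribose 5-phosphate and xylulose 5-phosphate. Rpia was low, at 43 to 132 reads a library. It stood at 11.62, 12.39 and 13.23 CPM in M0, at 10.95, 10.44 and 12.74 CPM in M1, at 17.53, 12.78 and 13.06 CPM in DGAT1i and at 12.15, 10.64 and 10.04 CPM in DGAT1i+M1. The M0 and M1 libraries overlapped, with a log2 fold change of -0.13 and an interval of -0.48 to 0.23. Rpia fell by 0.40 ± 0.16 in DGAT1i+M1 against DGAT1i (adjusted p = 0.0198, edgeR), and without replicate 1 of DGAT1i, its highest library, the log2 fold change was -0.24 (adjusted p = 0.212, edgeR).

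Rpe stood at 43, 41.02 and 41.35 CPM in M0, at 50.53, 47.89 and 49.64 CPM in M1, at 38.39, 47.27 and 40.38 CPM in DGAT1i and at 58.05, 58.83 and 49.73 CPM in DGAT1i+M1. The stimulated libraries were all above the unstimulated ones. Rpe rose by 0.24 ± 0.09 on the log2 scale in M1 against M0 (adjusted p = 0.0116, edgeR), but with library sizes alone and no TMM scaling the same comparison gave -0.23 (adjusted p = 0.0136, edgeR), and DESeq2 gave 0.22 with an adjusted p of 0.0902. It rose by 0.41 ± 0.09 in DGAT1i+M1 against DGAT1i (adjusted p = 3.44e-05, edgeR), and this was -0.01 with library sizes alone. Of its exon bases, 17.9% are shared with Kansl1l on the opposite strand, which passed the test in none of the 5 comparisons.

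Tkt encodes transketolase, which moves two-carbon units between sugar phosphates and links the pathway to glycolysis. Tkt stood at 342.1, 353.8 and 338.1 CPM in M0, at 243.8, 246.6 and 251.8 CPM in M1, at 338.5, 338.4 and 351.3 CPM in DGAT1i and at 263.9, 249.3 and 261.7 CPM in DGAT1i+M1. The stimulated libraries were all lower than the unstimulated ones, and the inhibitor groups overlapped with their counterparts. Tkt fell by 0.48 ± 0.05 on the log2 scale in M1 against M0 (adjusted p = 3.40e-12, edgeR) and by 0.41 ± 0.05 in DGAT1i+M1 against DGAT1i (adjusted p = 5.25e-10, edgeR). For the inhibitor, the log2 fold change was -0.01, with an interval of -0.12 to 0.11, in resting cells and 0.06, with an interval of -0.06 to 0.18, in stimulated cells. The related genes Tktl1 and Tktl2 had 0 reads and at most 1 read in any library.

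Taldo1 encodes transaldolase, which moves three-carbon units and works next to transketolase. Taldo1 stood at 255.6, 257.3 and 266.6 CPM in M0, at 434.8, 416.9 and 431.8 CPM in M1, at 464.9, 443.4 and 433.2 CPM in DGAT1i and at 620.4, 576.4 and 606.6 CPM in DGAT1i+M1. The inhibitor alone took it to the range of the stimulated cells, where the M1 and DGAT1i libraries overlapped. It rose by 0.72 ± 0.05 on the log2 scale after IFNγ and LPS (adjusted p = 1.30e-18, edgeR) and by 0.78 ± 0.05 with the inhibitor alone (adjusted p = 1.08e-18, edgeR), a 1.721-fold rise and the highest of the 8 members in that comparison. In stimulated cells the inhibitor raised it by 0.49 ± 0.05 (adjusted p = 1.72e-11, edgeR). The rise with the inhibitor was smaller in stimulated than in resting cells, by -0.29 ± 0.07 (adjusted p = 0.00201, edgeR's test of the interaction). In DGAT1i+M1 against DGAT1i, Taldo1 rose by 0.43 ± 0.05 (adjusted p = 6.58e-11, edgeR), and this was 0.01 with library sizes alone.

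Me1 encodes cytosolic malic enzyme, which turns malate into pyruvate and makes NADPH outside the pathway. Its counts were low, with 14, 15 and 18 reads in M0, 20, 33 and 37 in M1, 19, 18 and 18 in DGAT1i and 44 in each of the 3 DGAT1i+M1 libraries. These gave 2.034, 1.998 and 2.506 CPM in M0, 4.211, 5.941 and 6.931 CPM in M1, 2.524, 2.555 and 2.375 CPM in DGAT1i and 9.057, 9.179 and 10.27 CPM in DGAT1i+M1. The stimulated libraries were all above the unstimulated ones, and those with both treatments were highest. Me1 rose by 1.39 ± 0.26 on the log2 scale, 2.621-fold, in M1 against M0 (adjusted p = 5.43e-06, edgeR) and by 1.92 ± 0.23 in DGAT1i+M1 against DGAT1i (adjusted p = 1.94e-10, edgeR). The inhibitor raised it by 0.72 ± 0.21 in stimulated cells (adjusted p = 0.00747, edgeR). Without replicate 1 of M1, the lowest of its group, that comparison gave 0.55 (adjusted p = 0.0683, edgeR), and DESeq2 gave 0.72 (adjusted p = 0.0599). In resting cells the log2 fold change with the inhibitor was 0.19, with an interval of -0.49 to 0.87, so changes within that range in either direction could not be told from none at this depth. The processed pseudogene Gm7049 matches 49.8% of the longest Me1 transcript at 95% identity or more. No counts were found for Gm7049, and whether the match cost Me1 reads was not tested.

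The ratio of 2 genes' read counts within a library does not depend on how libraries are scaled. For G6pdx to Tkt it was 0.4781, 0.475 and 0.5268 in M0 and 2.479, 2.497 and 2.309 in M1. The inhibitor groups gave means of 0.5675 in DGAT1i and 1.953 in DGAT1i+M1. So the reads of the first oxidative enzyme went from fewer than those of transketolase to more in every stimulated library. The ratio of Pgd to Tkt had means of 0.6971 in M0, 2.805 in M1, 0.9949 in DGAT1i and 3.424 in DGAT1i+M1, and that of Taldo1 to Tkt had means of 0.7542, 1.73, 1.306 and 2.327 in the same order. Within the oxidative branch, the ratio of G6pdx to Pgd was 0.6857, 0.732 and 0.707 in M0, 0.8629, 0.9194 and 0.8172 in M1, 0.5414, 0.5734 and 0.5996 in DGAT1i and 0.5548, 0.5631 and 0.5946 in DGAT1i+M1. All 6 libraries with the inhibitor were below all 6 without it. These ratios are of reads, not of transcripts, because the genes differ in length.

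**Figure D3:**
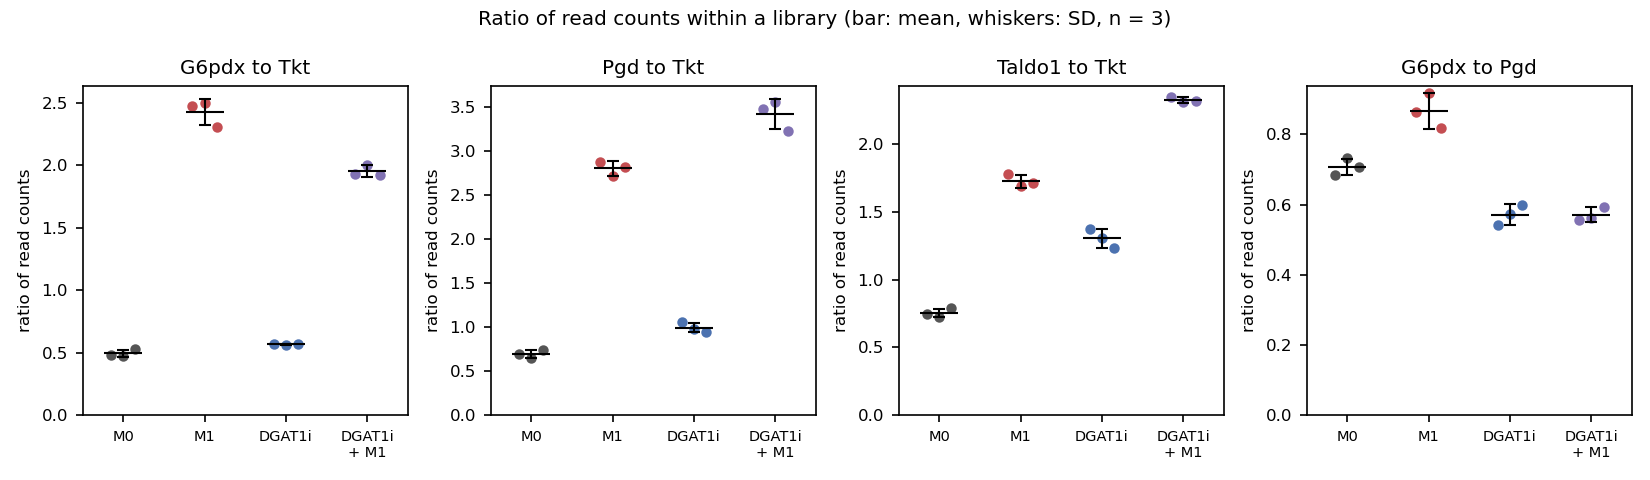
Ratio of read counts of 2 genes within a library (y axis, from 0) for G6pdx to Tkt, Pgd to Tkt, Taldo1 to Tkt and G6pdx to Pgd, in the M0, M1, DGAT1i and DGAT1i+M1 libraries. Points are libraries, bars are means and whiskers are the SD of 3 libraries. The ratios to Tkt were higher in every stimulated library than in every unstimulated one, with DGAT1i above M0, and the ratio of G6pdx to Pgd was lower in every library with the inhibitor.

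To compare genes with each other, levels were expressed per kilobase of exon (RPKM, over the merged exons of each gene). Merged exons can be longer than the transcripts made in these cells, so the order of the genes depends on that length. It was 7355 bases for Tkt and 2171 for Taldo1. By CPM, Tkt was the highest of the 8 in M0, at a mean of 344.7. In M0 macrophages Taldo1 was highest, at a mean of 119.7 RPKM, followed by G6pdx at 55.17, Tkt at 46.86, Pgd at 37.23, Pgls at 15.12, Rpe at 13.42, Rpia at 2.316 and Me1 at 0.5663 RPKM. In M1 macrophages Taldo1, at 192 to 200.3 RPKM, and G6pdx, at 188.7 to 199.9 RPKM, overlapped, Pgd at 107.6 RPKM had passed Tkt at 33.64, and Rpe at 15.85 stood above Pgls at 11.16 RPKM. In DGAT1i macrophages Taldo1 stood at 206 RPKM, and Pgd at 52.85 was above Tkt at 46.6 RPKM. With both treatments the order was Taldo1 at 276.9, G6pdx at 163.7, Pgd at 137.1, Tkt at 35.12, Rpe at 17.84, Pgls at 10.68, Me1 at 2.47 and Rpia at 2.042 RPKM. The isomerase and malic enzyme were thus the lowest of the 8 in every group.

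Other genes of pentose and ribose metabolism and other NADPH sources with related enzymes were counted from lists. Of 11 tested genes of pentose and ribose metabolism outside the 8, 3 rose and 4 fell in M1 against M0, where 73.3% of all genes tested passed, 37.1% higher and 36.2% lower, and the median log2 fold change was -0.07. Prps2, Prps1 and Prpsap2, which make or regulate the making of phosphoribosyl pyrophosphate from ribose 5-phosphate, fell by 2.75, 2.04 and 0.73 on the log2 scale. Of the same list, Prps1l3 rose by 0.50 ± 0.12 (adjusted p = 1.77e-04, edgeR), and Prpsap1, at 0.10 ± 0.11, did not pass the test. H6pd, the enzyme of the endoplasmic reticulum that carries out the first steps of the oxidative branch there, was at -0.07 ± 0.08 and did not pass the test with IFNγ and LPS, while the inhibitor raised it by 0.30 ± 0.07 in resting and 0.44 ± 0.08 in stimulated cells (adjusted p = 6.06e-04 and 7.11e-06, edgeR). Tigar, a fructose bisphosphatase that diverts glucose 6-phosphate to the pathway, rose by 0.68 in M1 against M0 and by 0.51 with the inhibitor in resting cells, and was at 0.06 and did not pass the test with the inhibitor in stimulated cells. Shpk, the sedoheptulose kinase, passed the test in none of the 5 comparisons, and G6pd2, a copy of G6pdx, had at most 2 reads in a library. With the inhibitor in resting cells, 3 of the 11 rose and 3 fell, where 11% of all genes tested rose and 13.4% fell. In stimulated cells 1 rose and 1 fell, where 13.5% of all genes rose and 16.3% fell. Among them, Prps1 fell by 0.73 ± 0.16 in resting cells (adjusted p = 2.58e-04, edgeR). Prps1l3 fell by 0.59 ± 0.13 in stimulated cells (adjusted p = 3.28e-04, edgeR).

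Outside the 8 members, 11 genes from a list of other sources of NADPH or its precursor NADP+ were tested. The list includes related folate and malic enzymes, such as Mthfd1l, and not all of them make NADPH. Of these, 2 rose and 6 fell in M1 against M0, with a median log2 fold change of -0.21. Their share that passed was near the 73.3% of all genes tested. Idh1, the cytosolic isocitrate dehydrogenase, had a mean of 173.9 ± 15.89 CPM in M0 and 39.86 ± 4.714 CPM in M1 (SD, n = 3), and Idh2, the mitochondrial one, 76.54 ± 3.271 and 9.683 ± 0.7026 CPM. Both fell, by 2.12 ± 0.08 and 2.98 ± 0.10 on the log2 scale (adjusted p = 3.00e-30 and 9.82e-33, edgeR). Nnt, the mitochondrial transhydrogenase, a gene that is truncated in the C57BL/6J substrain, the stock given in the study's methods, fell by 1.77 ± 0.12 (adjusted p = 1.34e-19, edgeR). Nadk, the cytosolic kinase that makes NADP+ from NAD+, rose by 1.47 ± 0.06 (adjusted p = 5.53e-31, edgeR), and Mthfd2, a mitochondrial dehydrogenase of folate metabolism, by 1.52 ± 0.08 (adjusted p = 5.69e-25, edgeR). So Idh1, Idh2 and Nnt fell where G6pdx, Pgd and Me1 rose, and Nadk and Mthfd2 rose with them. Mthfd1 and Mthfd2l, from the same list, fell by 1.97 ± 0.11 and 1.90 ± 0.30 (adjusted p = 3.81e-23 and 9.49e-08, edgeR).

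With the inhibitor in stimulated cells, 4 of these 11 genes rose and 3 fell, where 29.8% of all genes tested passed, with a median of 0.27. Nadk fell by 1.03 ± 0.06 (adjusted p = 1.34e-21, edgeR), from 321.4 to 157.5 CPM, and Idh1 rose by 0.72 ± 0.09 (adjusted p = 6.25e-09, edgeR), to 65.73 CPM. In resting cells Nadk was at -0.07 ± 0.06 and Idh1 at 0.07 ± 0.06, and neither passed the test. Both inhibitor responses differed between resting and stimulated cells, by -0.96 ± 0.08 for Nadk and by 0.65 ± 0.11 for Idh1 (adjusted p = 1.57e-13 and 9.27e-06, edgeR's test of the interaction). Nadk thus moved with G6pdx in this comparison, and Idh1 with Pgd, Taldo1 and Me1.

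**Figure D4:**
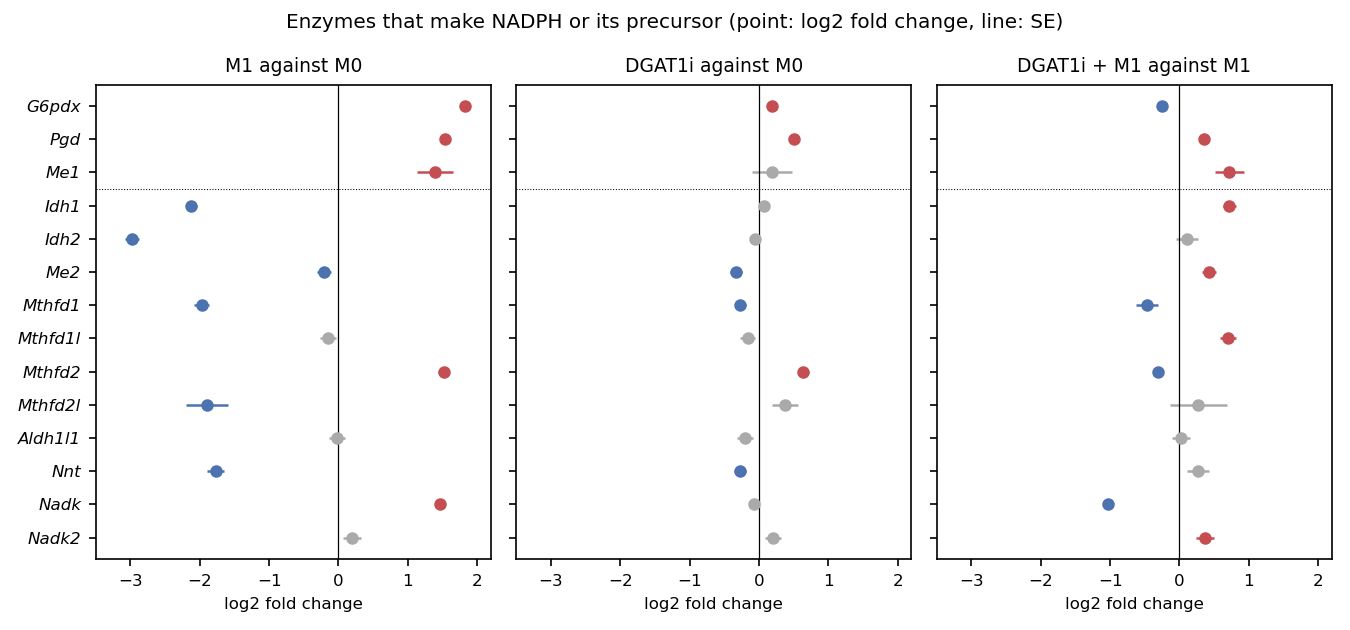
Log2 fold change (x axis) with SE in M1 against M0, DGAT1i against M0 and DGAT1i+M1 against M1. The NADPH-making members G6pdx, Pgd and Me1 are above the dotted line. Below it are the other tested genes listed as NADPH sources or related enzymes, not all of which make NADPH. Red genes were higher, blue genes lower and grey genes did not pass the test. In M1 against M0 the members lie to the right of 0 with Nadk and Mthfd2, at 1.47 and 1.52, while Idh1, Idh2 and Nnt lie at -2.12, -2.98 and -1.77.

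NRF2, encoded by Nfe2l2, is the transcription factor known for driving antioxidant genes and, among the members, G6pdx, Pgd, Taldo1, Tkt and Me1. Of 13 genes for NRF2, its inhibitor KEAP1 and known targets outside the 8 members, 11 rose and 1 fell in M1 against M0, where 37.1% of all genes tested rose, with a median log2 fold change of 2.09. With the inhibitor, 8 rose and none fell in resting cells, where 11% of all genes rose, with a median of 0.57, and 8 rose and 1 fell in stimulated cells, where 13.5% of all genes rose, with a median of 0.37. Hmox1, the haem oxygenase, rose by 3.07 ± 0.06 in M1 against M0, by 1.34 ± 0.06 with the inhibitor in resting cells and by 1.66 ± 0.06 in stimulated cells (adjusted p = 3.18e-45, 8.75e-26 and 4.46e-31, edgeR). Gclm, a subunit of the enzyme that starts glutathione synthesis, rose by 2.53 ± 0.06, 1.49 ± 0.06 and 0.93 ± 0.05 in the same comparisons (adjusted p = 5.09e-40, 8.98e-26 and 6.82e-21, edgeR). The mRNA of Nfe2l2 itself fell by 0.19 ± 0.05 in M1 against M0 (adjusted p = 0.00163, edgeR), and with the inhibitor it was at -0.08 ± 0.05 and -0.01 ± 0.06. Of the 5 members named as NRF2 targets, Tkt was the one that fell with IFNγ and LPS.

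By Pearson's r of log2 CPM over the 12 libraries, the genes whose levels were most like each member were found among 8677 other tested genes whose log2 CPM averaged 3 or more (8678 for Me1). They were Rab10 and Clcn7 for G6pdx (both 0.999), Srxn1 (0.999) and Esd (0.998) for Pgd, and Pus7 (0.989) and Isyna1 (0.982) for Pgls. For Tkt they were Rgs10 (0.996) and Rplp0 (0.994), for Taldo1 Jag1 (0.989) and Eaf1 (0.981), and for Me1 Dcaf12 (0.988) and Rhov (0.986). For Rpe they were Rab24 (0.944) and Zfp426 (0.936), and for Rpia Top1 (0.889) and Plekha8 (0.887). Between members, r was 0.949 for G6pdx and Pgd, 0.955 for Pgd and Me1, 0.943 for Pgls and Tkt and -0.989 for G6pdx and Tkt. The 12 points fall into 4 treatment groups and share libraries and scaling, so these values describe the order of the groups more than independent variation.

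Markers of the cell types that such cultures can hold were read in the same libraries. The summed level of 8 macrophage markers, all with reads in each group, was 13130 to 14360 CPM in M0, 8323 to 8980 in M1, 16050 to 18070 in DGAT1i and 7923 to 8891 in DGAT1i+M1. Lyz2, the macrophage lysozyme, made up most of that sum in the unstimulated groups, with a mean of 9641 CPM in M0 and 2956 CPM in M1. The other 7 markers summed to 4094 to 4124 CPM in M0, 5590 to 5894 in M1, 4107 to 4188 in DGAT1i and 5066 to 5488 in DGAT1i+M1. In M1 against M0, 3 of the 8 rose and 5 fell, where 37.1% of all genes tested rose and 36.2% fell. The sum of 7 neutrophil markers was 31.56 to 38.71 CPM in M0, 15.16 to 25.48 in M1, 22.86 to 29.03 in DGAT1i and 63 to 81.02 in DGAT1i+M1. Of these, Elane had 0 reads in each group but M0, and Mpo had 0 in M1. In DGAT1i+M1 against M1, where Pgd, Taldo1 and Me1 rose, all 4 neutrophil markers with enough reads to be tested rose, Ngp by 2.68, Ltf by 2.12, S100a8 by 1.92 and S100a9 by 1.70 on the log2 scale, where 13.5% of all genes tested rose. The 4 dendritic cell markers summed to 0.1332 to 0.8354 CPM in M0, 5.62 to 7.159 in M1, 0.2639 to 0.5679 in DGAT1i and 1.043 to 1.401 in DGAT1i+M1. Of them Xcr1, a chemokine receptor and the one tested, had 0 to 1 read in the M0 libraries, 28 to 30 in M1, 0 in DGAT1i and 2 to 5 in DGAT1i+M1. It rose in both comparisons of IFNγ and LPS and fell with the inhibitor in stimulated cells. The list of T and NK cells reached 4.827 CPM, with Cd3e, Cd3g and Ncr1 at 0, that of B cells 2.663 and that of fibroblasts 2.106, and the erythroid markers had 0 reads in all libraries. A list of 13 proliferation genes summed to 2189 to 2574 CPM in M0, 296 to 342.2 in M1, 1250 to 1404 in DGAT1i and 295 to 318.9 in DGAT1i+M1, so it was lower in both stimulated groups, where G6pdx and Pgd were higher and Tkt and Pgls lower. It was also lower in DGAT1i than in M0, where G6pdx and Pgd rose and Tkt and Pgls did not pass the test. The sum overlapped between M1 and DGAT1i+M1, where Pcna made up most of it, at means of 226 and 241.8 CPM, and of the 13 genes 5 fell and none rose, where 16.3% of all genes tested fell and 13.5% rose, with a median log2 fold change of -0.52. Mcm5, Mcm2 and Mcm6, subunits of the replicative helicase, fell by 1.71, 1.27 and 0.59. The part of these cell-type and proliferation differences in the members' changes was not tested.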

How the data were processed

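RNA-seq was done on 12 libraries of mouse bone marrow-derived macrophages, 3 in each of 4 groups. The authors deposited a table of raw read counts per Ensembl gene. The submitters' processing notes name GRCm38 and DESeq2, and for the aligner, the counting tool and the annotation release the sources read here give no name. The library kit is named differently in the labels and in the study's methods, and use of strand in the counting is not given. Identifiers were matched to GENCODE M21 without their version (627 had no symbol).

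From the counts, genes were filtered with filterByExpr of edgeR 4.0.16 (R 4.3.3) and scaled by TMM, and a quasi-likelihood model with 1 mean per group was fitted over all 12 libraries. 5 contrasts were tested, the fifth being the interaction, with p-values adjusted by Benjamini-Hochberg over 11760 genes and called at 0.05. SEs were derived from the F statistic, and 95% intervals used 8 residual degrees of freedom. On simulated counts for M1 against M0, 84% of 100 genes changed 1.5-fold and 74% of 100 changed 2-fold were recovered, with 8 false calls over 11504 genes. For the interaction, 63% of 100 and 70% of 100 were recovered, with 6 false calls over 11520 genes, and the other 3 comparisons recovered 81% to 85% of genes changed 1.5-fold and 75% to 85% of those changed 2-fold, with 7 to 15 false calls. In each simulation the changed genes were raised or lowered in 1 group, and all other genes kept the same mean in every group. The 1.5-fold and 2-fold sets were different genes. In the data 73.3% of genes passed in M1 against M0, so these rates need not hold there. Replicates correlated at 0.988 to 0.992 and differed by more than sampling noise, with a chi-square of 1.89 to 3.94 per gene. Exon overlaps came from GENCODE M21, near copies from BLAST 2.17.0, and promoter windows from RefSeq (GRCm38.p6).

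All 8 members are named. From the other lists, at most the 3 called genes with the smallest p in a comparison are named, with G6pd2, Tktl1, Tktl2, H6pd, Shpk, Idh1, Idh2, Nnt, Nfe2l2 and Nos2 in any case, and a result that this rule gives is not reported here. The genes most like a member are the 2 with the highest Pearson r. Ikbkg, Fam129c and Kansl1l were named because they share exon bases with members. Cell type markers and Pcna were chosen with their values already known. So were the values of Mthfd2, Nadk, Tigar, Prps1l3, Prpsap1, Mthfd1 and Mthfd2l in comparisons where the rule does not give them. The members and lists were chosen with earlier results of these data known. Alternatives were RLE size factors, library sizes alone, no filter, a mean of at least 1 CPM, DESeq2 1.42.0, only the 6 libraries compared, a replicate block and leaving out each library.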

Additional observations from a re-analysis of the deposited data

Results flagged for a closer look

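The response to the DGAT1 inhibitor differed between stimulated and resting macrophages for 2 of the 8 members, by edgeR's test of the interaction. For comparison, 18.5% of all tested genes passed that test. G6pdx rose with the inhibitor in resting cells and fell in stimulated cells, a difference of -0.45 on the log2 scale, with a 95% interval of -0.62 to -0.28. Taldo1 rose in both, and its rise was smaller in stimulated cells, a difference of -0.29, with an interval of -0.46 to -0.13. No member passed in the other direction.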

How the results depend on the processing

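The number of members called stayed at 7 in M1 against M0, at 3 in DGAT1i against M0 and at 2 for the difference of the inhibitor responses when any 1 library was left out, and ranged from 3 to 4 in DGAT1i+M1 against M1 and from 7 to 8 in DGAT1i+M1 against DGAT1i. Under the other alternatives the numbers were 6 to 8, 3, 2, 3 to 4 and 6 to 8 in the same order. Of the single log2 fold changes, 262 under the other alternatives and 469 without 1 library kept their direction and their side of the threshold.

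Direction turned in 12 cases. With library sizes alone, Rpe was at -0.23 in M1 against M0 and at -0.01 in DGAT1i+M1 against DGAT1i, where the median gene shifted as well. In DGAT1i against M0, where Rpe is near 0, it was at -0.01 with RLE size factors and with DESeq2, at -0.05 with library sizes alone, at -0.01 without M0 replicate 2, at -0.00 without M0 replicate 3 and at -0.08 without DGAT1i replicate 2, in a range up to 0.07 when 1 library was left out. In the same comparison Tkt was at 0.01 without M0 replicate 2 and at 0.00 without DGAT1i replicate 1 or replicate 2, in a range from -0.03. Rpia was at 0.04 in DGAT1i+M1 against M1 without M1 replicate 3, in a range from -0.14.

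The side of the threshold changed as follows. With library sizes alone, Rpia passed in M1 against M0 at -0.60 (adjusted p = 5.19e-04, edgeR) while in DGAT1i+M1 against DGAT1i Taldo1, at 0.01 (adjusted p = 0.91, edgeR), and Rpe, at -0.01 (adjusted p = 0.9, edgeR), no longer did. With DESeq2, Rpe in M1 against M0 (0.22, adjusted p = 0.0902), Me1 in DGAT1i+M1 against M1 (0.72, adjusted p = 0.0599) and Rpia in DGAT1i+M1 against DGAT1i (-0.41, adjusted p = 0.0814) no longer passed. Me1 also lost its call without M1 replicate 1 (0.55), and Rpia without DGAT1i replicate 1 (-0.24), DGAT1i+M1 replicate 2 (-0.38) or DGAT1i+M1 replicate 3 (-0.34). Beyond the changed scaling and the fewer libraries, the cause was not tested.

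Libraries of different groups that carry the same replicate number had residual correlations of -0.0217 to 0.0687, with 0 of 18 pairs over 0.1. With 3 libraries in a group, such small values cannot decide whether the numbers pair the samples. A fit with the replicate number as a block called 7, 4, 3, 8 and 2 members in the 5 comparisons and changed no member's call. Depth limits Me1 and Rpia most.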

Other observations

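Of 19 tested genes that spend NADPH, 12 rose and 7 fell in M1 against M0, where 73.3% of all genes tested passed, 37.1% higher and 36.2% lower, with a median log2 fold change of 0.63 against 0.01 over all genes tested. Nos2, which uses NADPH to make nitric oxide, was at least 34370-fold higher in M1 than in M0, taking 3 reads over the M0 group as the floor. Gsr, the glutathione reductase, rose by 2.46 ± 0.06 and Akr1a1, an aldehyde reductase, by 2.08 ± 0.05 (adjusted p = 2.02e-39 and 1.27e-39, edgeR's quasi-likelihood test). In stimulated cells the inhibitor lowered Ncf1, a subunit of the phagocyte NADPH oxidase, with a log2 fold change of -0.46 ± 0.05 (adjusted p = 7.93e-11, edgeR). Fasn, the fatty acid synthase, which also uses NADPH, fell by 2.74 ± 0.08 in M1 against M0 (adjusted p = 4.39e-36, edgeR).

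Glycolytic genes and nucleotide synthesis genes, whose products draw on the ribose of the pathway, moved apart in M1 against M0. Of 17 genes of glucose entry and glycolysis, 16 rose and 1 fell, against 37.1% and 36.2% of all genes tested, with a median of 1.12, and Pfkfb3, Hk3 and Slc2a1 rose by 4.10, 2.74 and 2.06. Of 17 genes of nucleotide synthesis, 1 rose and 15 fell, with a median of -1.44, and Rrm1, Rrm2 and Tyms fell by 3.48, 6.97 and 4.61. All 13 proliferation genes fell as well, and the part of that fall in the nucleotide genes was not tested. With the inhibitor in resting cells, 11 of the 17 nucleotide genes and 13 of 13 proliferation genes fell, against 13.4% of all genes tested.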
